A study of Mus musculus with 28 samples.

Results

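The sites described here are peaks of DNA methylation that appeared in 1 of a pair of deposited MBD-seq summit lists, the one named for wild type, and had no counterpart in the other, named for D1. A summit is the single base at which the peak caller placed the centre of an enriched region. A summit of the list named for wild type was a member when it lay on an assembled chromosome, had a score of at least 10 and had no summit of the list named for D1 within 5 kb. The score is −log10 of a p or q from the authors' peak caller, and no source used here says which. Of 156188 summits of that list on assembled chromosomes, 130855 reached the score and 6457 of those, 4.93%, were members. Score and distance chose the members, so they are given below as descriptions.

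The study mapped Smchd1, Ctcf, H3K4me3, H3K27me3 and DNA methylation in neural stem cells cultured from brains of male mouse embryos at E14.5 (strain C57BL/6 x FVB/N). All groups used here were male cells of this origin, either Smchd1 wild-type or Smchd1MommeD1/MommeD1, which the labels call Smchd1 null. MBD-seq had 3 libraries per genotype, and the H3K4me3 and H3K27me3 ChIP 2 per genotype, each genotype set against its own whole cell extract. Smchd1 ChIP in wild-type cells had 2 libraries and was set against Smchd1 ChIP in null cells. Ctcf ChIP had 2 libraries each in untransduced wild-type cells, in wild-type cells with a non-silencing shRNA and in null cells, and the control was wild-type cells with the shRNA Ctcf.6 or Ctcf.7. The labels of the MBD samples cite the lists crosswise: samples titled null name the list called wild type and the reverse. The MBD lists are therefore called here by their own names, and no genotype is given to a difference between them. Each list was called on pooled libraries, so no value has a replicate error, no difference was tested across samples, and the depth per library is unknown.

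The cells were first checked against markers. In the wild-type list, 16 of 17 neural stem cell marker genes with a mapped start had an H3K4me3 summit within 1 kb of it, and Sox2 did not. The count was 14 of 17 in the null list. For neuron markers it was 15 of 22 in both lists, for glia markers 4 of 12, endothelium 2 of 6, blood 1 of 11 and mesenchyme 0 of 7. Of all 27025 genes with a mapped start, 43.7% had one in the wild-type list. H3K4me3 thus marked starts of most neuron genes as well as stem cell genes.

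In mammals, methyl groups on cytosine sit mostly at CpG, the letters CG, and are put there and copied by DNA methyltransferases. Methylation covers most gene bodies and intergenic DNA, is low at CpG-rich promoters marked by H3K4me3, and blocks Ctcf at some of its sites. At imprinted genes it differs between the copies from the father and the mother. Smchd1 is a non-canonical member of the SMC proteins, which shape chromosomes, and is known for silencing on the inactive X, at some imprinted clusters and at clustered protocadherins. MBD-seq pulls down DNA fragments with several methylated CpGs. It therefore reads methylation and CpG density together, and it cannot tell fewer methylated cells from less methylation per cell.

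Some of the sequences behind the members are shown first. Peg12 and Mkrn3, intronless genes of the imprinted Snrpn cluster that are expressed from the father's copy, held members just downstream of their starts. Gcg, Acacb and Shroom3 had the highest members among coding genes whose start window (250 bases before to 50 after the annotated start) held one. Gm40847, a predicted coding gene, had the most CpGs among the 10 coding genes with the highest members in such a window. The 250 bases before each start are printed 5′ to 3′ on the gene's strand, with each CG in capitals; the motif CG reads the same on both strands. Sequences and coordinates are RefSeq's for GRCm38.p6, the assembly known as mm10.
Peg12 (chr7:62464511-62464760, minus strand): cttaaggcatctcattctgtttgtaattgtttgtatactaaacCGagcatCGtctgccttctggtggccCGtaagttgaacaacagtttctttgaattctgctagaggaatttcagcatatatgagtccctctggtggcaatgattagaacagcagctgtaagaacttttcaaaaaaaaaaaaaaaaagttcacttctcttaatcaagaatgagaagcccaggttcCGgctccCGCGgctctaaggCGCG
Mkrn3 (chr7:62420154-62420403, minus strand): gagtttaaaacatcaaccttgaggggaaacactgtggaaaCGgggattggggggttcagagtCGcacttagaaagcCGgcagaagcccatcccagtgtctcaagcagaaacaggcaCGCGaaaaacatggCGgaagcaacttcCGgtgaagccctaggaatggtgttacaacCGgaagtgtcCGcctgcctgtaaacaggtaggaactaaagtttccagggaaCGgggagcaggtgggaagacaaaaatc
Gcg (chr2:62483654-62483903, minus strand): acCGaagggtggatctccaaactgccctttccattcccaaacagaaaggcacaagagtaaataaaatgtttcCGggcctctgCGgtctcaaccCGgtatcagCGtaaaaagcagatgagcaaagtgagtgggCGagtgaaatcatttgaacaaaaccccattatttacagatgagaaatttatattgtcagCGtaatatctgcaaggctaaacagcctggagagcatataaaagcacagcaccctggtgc
Acacb (chr5:114165268-114165517, plus strand): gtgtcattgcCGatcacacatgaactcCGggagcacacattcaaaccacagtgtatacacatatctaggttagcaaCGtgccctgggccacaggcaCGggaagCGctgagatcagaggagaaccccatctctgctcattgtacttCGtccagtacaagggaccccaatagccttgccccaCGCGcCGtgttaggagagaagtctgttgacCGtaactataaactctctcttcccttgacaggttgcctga
Shroom3 (chr5:92809132-92809381, plus strand): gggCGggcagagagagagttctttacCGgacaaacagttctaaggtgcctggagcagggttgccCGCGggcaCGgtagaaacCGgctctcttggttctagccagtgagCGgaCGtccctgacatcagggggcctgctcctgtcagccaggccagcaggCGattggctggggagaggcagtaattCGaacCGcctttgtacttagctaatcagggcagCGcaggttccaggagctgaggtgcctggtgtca
Gm40847 (chr12:18853705-18853954, plus strand): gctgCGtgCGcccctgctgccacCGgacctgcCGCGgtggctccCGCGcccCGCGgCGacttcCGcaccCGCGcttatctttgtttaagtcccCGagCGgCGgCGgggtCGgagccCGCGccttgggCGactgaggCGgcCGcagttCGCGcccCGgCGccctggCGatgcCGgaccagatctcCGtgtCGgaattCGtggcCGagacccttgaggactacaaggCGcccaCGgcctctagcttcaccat

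Start windows that held a member were of low to middling CpG content. Of 32851 start windows, 31 held a member and 797 held only other summits of the list with the same score. The median was 8 CG per 300 bases (quartiles 7 and 12, range 5 to 42) with a member. It was 10 (9 and 13) with another summit only, and 7 (3 and 21) in the 32023 windows with none. A CG was present in all 31 windows with a member and in 94.6% of all start windows. Windows with at least 20 CG made up 3 of the 31 (9.68%), 6.15% of those with another summit only and 27.01% of those with none.

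**Figure D1:**
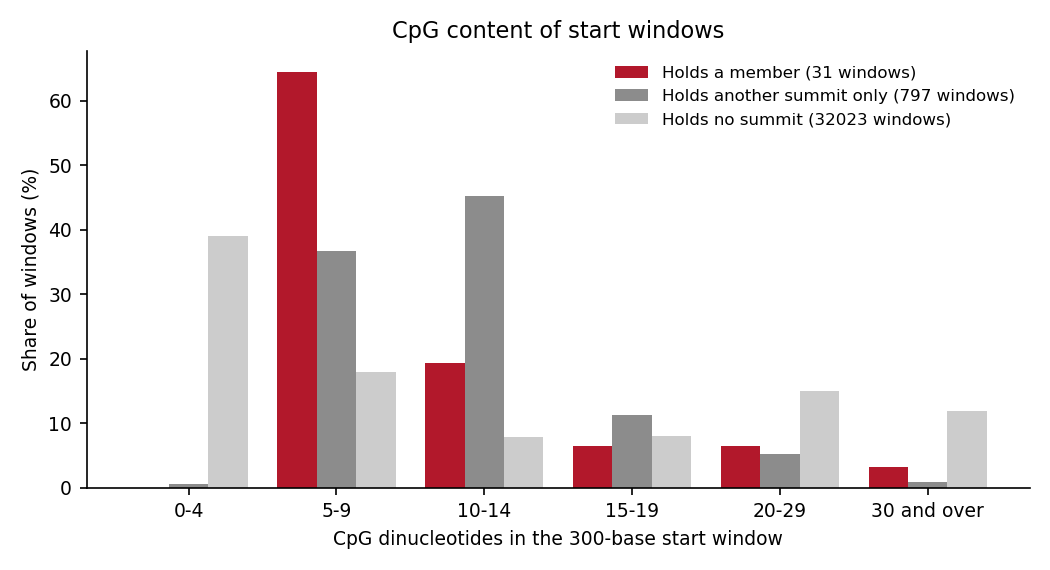
Share of 300-base start windows (y axis, %) by number of CG dinucleotides (x axis), for windows that held a member, another summit scoring at least 10 only, or neither. Most of the 31 windows with a member had 5 to 9 CG, while windows without a summit were spread from fewer to many more.

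The members in start windows were of modest score. Gcg, which encodes the precursor of glucagon and GLP-1, had a member of score 17.5 at 172 bases before its start (chr2:62483825). Acacb, an acetyl-CoA carboxylase of fatty acid metabolism, had one of 16.9 at 153 bases before it (chr5:114165365). Shroom3, an actin-binding protein of neural tube closure, had one of 15.3 at 243 bases before it (chr5:92809139), with the nearest summit of the list named for D1 31127 bp away. Arsg, a lysosomal sulfatase, followed with 13.7, the transporter Slc6a16 with 13.1, the hair keratin Krt39 and the inner-ear oxidase Nox3 with 12.5 each, and Morf4l2, Dennd2c and Gm40847 with 11.9 each. In Gm40847, whose window held 42 CG, the member lay 174 bases before the start.

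Members were the weak end of their list. Their median score was 12.2 (quartiles 10.7 and 14.3, range 10.0 to 51.6), against 24.2 for all 130855 summits of at least 10. Scores under 15 made up 81.6% of members. Only 190 members reached 20, 4 reached 30 and 3 reached 40. The share of summits without a counterpart fell from 21.8% (exact 95% Clopper-Pearson interval 21.1 to 22.5) at scores of 10 to 12 to 12.6% at 12 to 15, 4.67% at 15 to 20, 1.14% at 20 to 25 and 0.204% at 25 to 30. Of the 34708 summits of at least 40, 3 were members, and of the 13164 of at least 60 none was, where 3 would be 0.0228%. These intervals hold counting error alone, as if summits were independent of their neighbours, which is not the case.

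The reverse set was small. By the same rule, 295 of 107232 summits of the list named for D1, 0.275%, had no summit of the list named for wild type within 5 kb, and 1 of them reached a score of 20. At scores of 10 to 12 the share was 1.55% (1.35 to 1.77), and at 15 to 20 it was 0.0328%. The lists differ in length, with 1.23 times as many summits in the list named for wild type. When the longer list was trimmed to its 126631 highest summits, 5448 members remained against 1755 sites found only in the list named for D1. Trimming 1 list can only move both counts this way. The part of depth in the asymmetry was not tested.

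**Figure D2:**
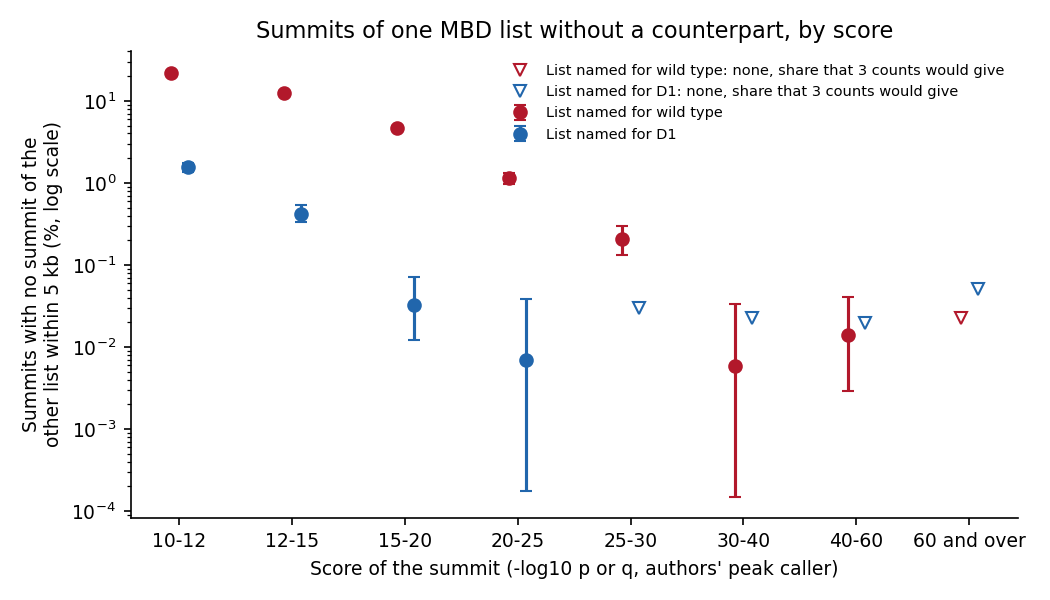
Share of summits without a summit of the other MBD list within 5 kb (y axis, %, log scale) by score class (x axis), with exact 95% intervals. Triangles stand where there was none, at the share that 3 counts would give. Both lists fall with score, from 21.8% and 1.55% in the lowest class, and the list named for wild type stays higher up to a score of 30.

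Around the score limit the values ran on without a step. The lowest member scored 10.0128 and the highest summit without a counterpart just below the limit 9.99922, and 8142 such summits lay below it, 2314 of them at 9 to 10. Around the distance limit, 718 members had their nearest counterpart up to 1 kb beyond the limit and 946 other summits up to 1 kb within it. Most summits of the list were far from this limit, since 90.5% had a counterpart within 1 kb and the median distance of the non-members was 10 bp. Members had a median distance of 12256 bp (quartiles 7543 and 22777), and 110 were over 100 kb from any counterpart. The farthest, on chromosome Y, was 1462202 bp away.

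Members were mostly single sites. Joining members within 1 kb left 6404 sites, of which 6351 were single. The next summit of the same list was a median of 9335 bp from a member and 2376 bp from other summits. Since nearly all summits of the list have a counterpart close by, barring counterparts within 5 kb also bars most neighbours of the same list, so this spacing follows from the rule. Followed along the chromosome, 4991 members stood alone between non-members, 595 runs held 2 members, 80 held 3 and 9 held 4. The runs of 4 included one over 14600 bp in Gli2, a transcription factor of hedgehog signalling, one over 59867 bp in the chromatin protein gene Baz2b, and one over 11076 bp in the methyltransferase gene Smyd3. The fullest 500-kb window, chr19:24500001-25000000, held 9 members of 35 summits. These runs and windows were picked after their values were seen.

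The highest member, with a score of 51.6, lay in the protocadherin alpha cluster (chr18:36954658), 1969 bp past the start of Pcdha4. Clustered protocadherins are neuronal cell-surface proteins whose alternative promoters are chosen cell by cell, with Ctcf at the promoters. The nearest summit of the list named for D1 was 6652 bp away and scored 21.0. In null cells there was an H3K4me3 summit 1904 bp away (score 27.8) and a Ctcf summit 1439 bp away (score 13.2). In wild-type cells the nearest H3K4me3 summit was 65775 bp away, and the nearest Ctcf summits were 65406 bp (non-silencing) and 135272 bp (untransduced) away. Within 2 kb of the member, H3K4me3 and Ctcf summits were thus in null lists only. With counterparts barred within 10 kb, neither this site nor the next highest would be a member, and 1 of the 3 sites of at least 40 would remain.

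Null lists had more H3K4me3 and Ctcf summits over the whole cluster than the wild-type lists counted there. Over the Pcdha cluster (chr18:36930285-37188897), the H3K4me3 list had 4 summits in wild-type and 13 in null cells, and the Ctcf list 2 in wild-type cells with the non-silencing shRNA and 14 in null cells. The null labels name no shRNA, so the Ctcf counts may differ by transduction as well as genotype. The untransduced wild-type Ctcf list was not counted over the cluster. Of 30 summits of the list named for wild type there, 6 lay within 250 bp of a null H3K4me3 summit. None of these 6 had a summit of the list named for D1 within 1 kb, but all 6 had one within 5 kb, so they were not members, and their arrangement differs from that of the highest one. Of the other 24, 16 had a counterpart within 250 bp. This comparison was chosen after the values were seen.

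Each protocadherin cluster held few members. The alpha cluster held 2 members of 24 summits of at least 10, the beta cluster 1 of 34 and the gamma cluster 1 of 43. The second alpha member, of score 15.0, lay 465 bp past the start of Pcdhac1 (chr18:37090601), with summits of Smchd1 at 628 bp, of Ctcf in all 3 lists at 648 to 671 bp and of H3K4me3 at 476 bp (wild type) and 489 bp (null). The others were a 10.7 in Pcdhb1 and a 12.5 near the shared end of the gamma genes. Of 57 protocadherin genes on the list, 35 held a member, but the genes of a cluster overlap. The 4 distinct members were 3.96% of the 101 summits there, beside 4.93% of all summits. At coding genes (in the gene or within 2 kb of an end) members were 3.94% of the summits, with a summit counted once per gene.

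The second-highest member, of score 45.0 (chr15:97780741), lay 3624 bp from Slc48a1, a heme transporter. Its nearest counterpart was 9271 bp away. H3K4me3 stood 3821 bp from it in wild-type and 3965 bp in null cells, and Ctcf 2196 bp (non-silencing) and 2212 bp (null) from it. The marks around it were thus present in both genotypes.

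The third, of score 40.2 (chr7:62463816), lay in Peg12, a paternally expressed gene of the Snrpn cluster, 694 bp downstream of its start. Ctcf summits of all 3 lists stood 125 bp (non-silencing), 135 bp (null) and 145 bp (untransduced) before the start, within the Peg12 sequence shown above. The H3K4me3 summit nearest the member was 284 bp away in null cells (score 64.9) and 1099 bp away in wild-type cells (score 30.2). The nearest summits of both MBD lists lay beyond 12 kb, at 12504 bp in its own list and 12517 bp in the other. It was the gene's one summit of at least 10.

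The fourth, of score 31.4 (chr3:122639525), lay 19811 bp from Fnbp1l, a membrane-curving protein. Ctcf summits of all 3 lists were 676 to 684 bp away. Members with a coding gene within 10 kb and scores of 25.04 to 29.9 were at genes of several kinds. They included the corepressor Rcor1 (29.9), N4bp3 (29.5), Cep170b (28.0), Plekha4 (28.0), the matrix protein gene Thbs2 (26.6), the glypican Gpc5 (26.5), the cadherin Cdh4 (26.4) and Kmt2c, a histone H3K4 methyltransferase (26.1). Ripor2, Zfp131, Ttc39b and the replication fork protein Tipin had 25.6 each, and 4930447A16Rik, Phf21b, Lhfpl2, Ext1 and Mllt3 25.04 to 25.14. Other members of this height lay farther from coding genes, 13572 bp from Fbxo2 (28.0), 76084 bp from Mat2b (27.02) and 40841 bp from LOC115488029 (26.6). In Gpc5 the nearest counterpart was 103281 bp away and in Kmt2c 59061 bp.

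**Figure D3:**
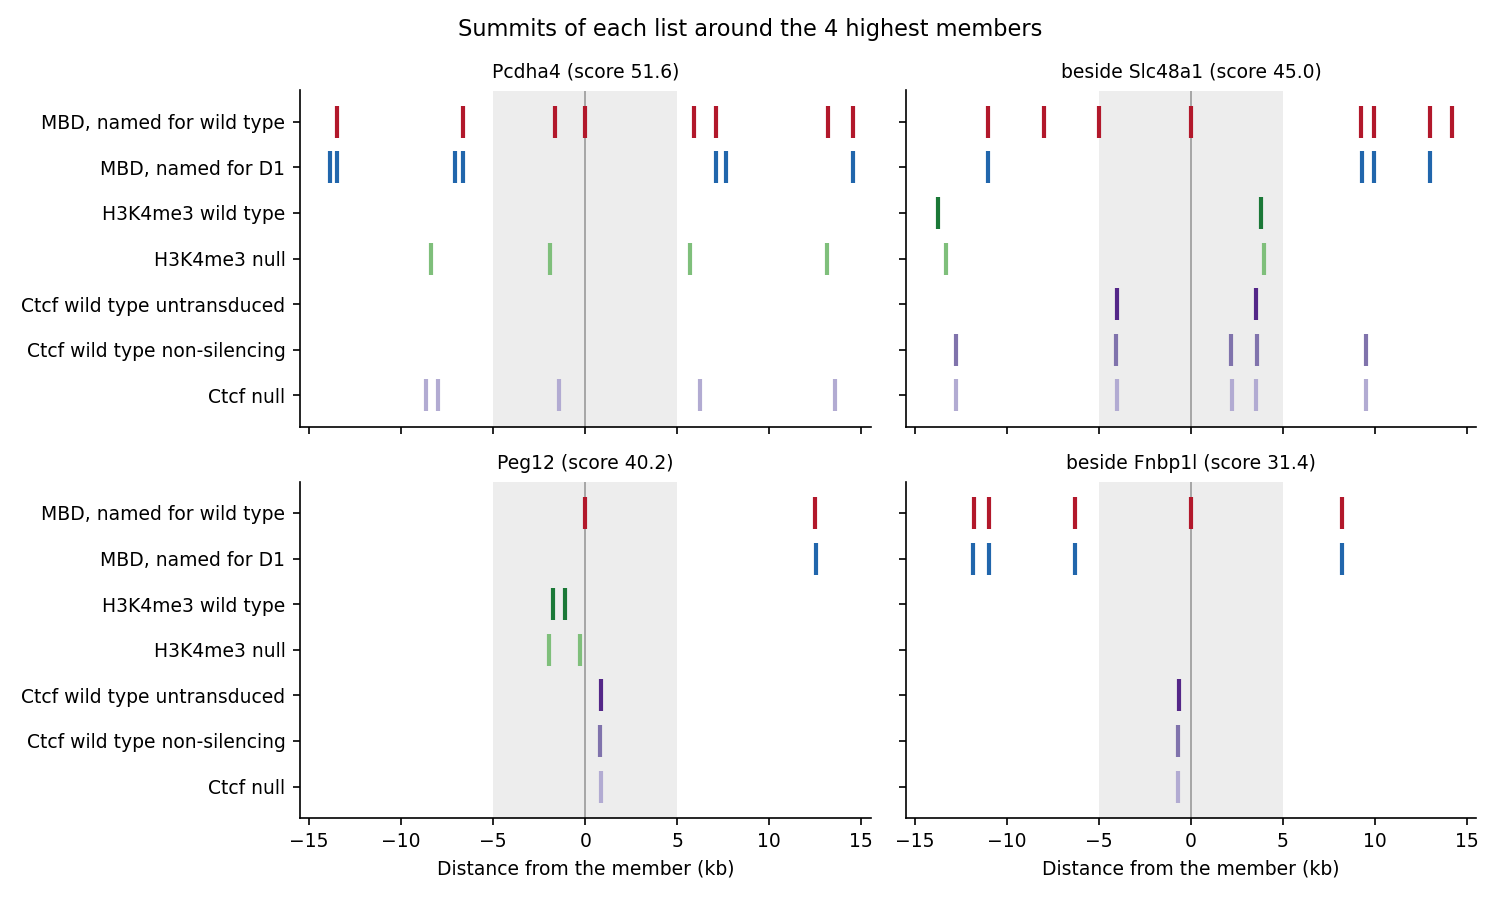
Positions of summits (ticks) of the MBD, H3K4me3 and Ctcf lists within 15 kb of the 4 highest members (x axis, distance in kb; rows are lists). The shaded band marks the 5 kb on each side in which the rule allows no summit named for D1. At Pcdha4 the H3K4me3 and Ctcf ticks are in null rows only, and at the other 3 members the marks shown are in both genotypes.

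The Snrpn cluster held 4 members of 49 summits of at least 10 over chr7:59228750-62464510, 8.16% beside 4.93% of all summits. It also held 1 site found only in the list named for D1. Besides Peg12, Mkrn3, a ubiquitin ligase gene, held 2 members of score 18.5, at 314 and 942 bp downstream of its start (chr7:62419839 and chr7:62419211). They were its only summits of at least 10. H3K4me3 summits lay 144 bp (wild type, score 38.5) and 20 bp (null, score 50.3) from the closer member. In the Smchd1 list made at the looser threshold of 5e-3 a summit of score 3.97 lay 52 bp before the start, within the Mkrn3 sequence shown above. The fourth member, of score 14.3 (chr7:60492600), lay 42423 bp from Snrpn, the nearest coding gene. A Smchd1 summit stood 105 bp from it, with H3K4me3 at 210 bp in wild-type (score 10.2) and 492 bp in null cells (score 38.0).

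Over all imprinted genes the share of summits that were members lay between the share at coding genes and that of all summits. Of 53, 12 held a member in the gene or within 2 kb of an end, 22.6%, against 11.6% of all 21887 coding genes (2533). The 15 distinct members were 4.55% of the 330 summits there, beside 4.93% of all summits and 3.94% at coding genes. Peg12 and Mkrn3 were followed by Slc22a18 (18.2) and Slc22a3 (15.3), both of the organic cation transporter family, Usp29 (14.6) and Zim1 (13.1). The Igf2r cluster, with Slc22a3 and Igf2r, held 2 members of 38. The lists were chosen with earlier results of these data known, and counts are read only against these background shares.

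Of 44 germ cell genes, which are methylated and silent in most somatic cells, 4 held a member: the meiotic recombinase Dmc1 (23.7), the piRNA pathway genes Tdrd1 (21.3), Asz1 (13.1) and Tdrd9 (10.7). Of 400 Zfp genes 29 did, 7.25%, led by Zfp131 (25.6), Zfp287 (19.6), Zfp984 (16.3), Zfp458 (16.2), Zfp277 (16.2) and Zfp407 (15.6). Of 1110 olfactory receptor genes 4 did, led by Olfr183 (19.6) and followed by Olfr571, Olfr155 and Olfr1198. Of 355 vomeronasal receptor genes 3 did: Vmn2r22, Vmn2r79 and Vmn2r57. Of 33 Rhox genes, X-linked homeobox genes of the reproductive tract, 3 did, with 1 member shared by Rhox2a and Rhox3a (13.1) and 1 in Rhox8 (15.6). Of all coding genes 11.6% did, but only 97 olfactory and 30 vomeronasal receptor genes had a summit of at least 10. Members were 2.65% of 151 summits at germ cell genes, 3.10% of 1163 at Zfp genes and 3.36% of 119 at olfactory receptor genes. They were 6.82% of 44 at vomeronasal receptor genes and 9.52% of 21 at Rhox genes, beside 4.93% of all summits and 3.94% at coding genes.

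As shares of genes, regulators of development and chromatin lay on both sides of the 11.6% of all coding genes. As shares of their summits they lay below the 4.93% of all summits and on both sides of the 3.94% at coding genes. These shares rest on few members each. Members were 3.57% of 112 summits at developmental factors and 4.03% of 124 at Polycomb genes. They were 4.12% of 97 at Smc and partner genes and 0.901% of 111 at DNA methylation genes. The 41 Hox genes had no summit of at least 10 and hence no member. Of 75 developmental transcription factor genes 4 held one, 5.33%, among them Dlx2 (16.5), Lhx8 (15.0) and Pax3 (10.2). Of 26 Polycomb genes 4 did, 15.4% (Pcgf1 14.3, Jarid2 14.2, Phc3 and Pcgf6 10.7 each), and of 20 genes of the DNA methylation machinery 1 did, Zbtb4 (17.5), whose protein binds methylated DNA. Of 26 genes of Smc complexes and Smchd1 partners 3 did, 11.5%: the cohesin regulators Pds5a and Stag1 (15.8 each) and Nipbl (13.5). Smchd1 itself (chr17:71344489-71475366) held 0 members of 8 summits, and 1 site found only in the list named for D1.

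Among cell type markers, the neural stem cell and neuron genes had shares above the 11.6% of all coding genes, from a few genes each. Of 25 neural stem cell genes 4 held a member, 16.0%: Msi2 (17.5), Cd24a (11.04), Notch1 (10.8) and Msi1 (10.7). Their 13 distinct members were 10.9% of 119 summits, beside 4.93% of all summits and 3.94% at coding genes. Of the 13, 8 were in Msi2, a long gene, and 3 in Msi1. Of 29 neuron genes 5 did, 17.2%, with 6 members of 185 summits (3.24%): Nefm (14.3), Dcx and Rbfox3 (13.7 each), Elavl4 (13.1) and Syn1 (10.2). The neuron genes had a median length of 37.1 kb, and 14.1% of all coding genes of 20 to 100 kb held a member. Of 16 glia genes, 11 epithelium genes, 16 housekeeping genes and 5 X-inactivation centre genes none did. Single blood, endothelium and mesenchyme genes held one: Spi1 (13.7), Tek (11.3) and Col1a2 (12.5).

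Whether a gene held a member followed its length. The share was 3.00% of coding genes under 20 kb, 14.1% at 20 to 100 kb, 45.5% over 100 kb and 70.9% of the 227 over 500 kb. The share of the summits in these genes that were members also rose, from 2.34% under 20 kb to 6.93% over 500 kb. Msi2, an RNA-binding protein of neural stem cells, held 8 members of 53 summits, and Tenm3, a teneurin of neuronal wiring, 8 of 135. The kinase gene Mast4 held 7 of 61 and the teneurin Tenm2 7 of 54. Gpc5, Cdh4, Mdga2, Magi1, Esrrg and Erc2 held 6 each, in Mdga2, a synaptic adhesion regulator, of only 12 summits. Further genes also held 6, among them Alk, Snd1, Cdh13, Baz2b and Auts2, and ties were ordered by the highest score. None of the first 10 held a member within 2 kb of an end.

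Members lay less often in genes than the other summits. In coding genes there were 3145 members, 48.7% (47.5 to 49.9), beside 61.8% of the other summits of at least 10 and 55.7% when those were weighted to the members' scores. The share for members was 46.7% at scores of 10 to 12, 49.1% at 12 to 15 and 52.6% at 15 to 20, with 55.3%, 55.9% and 55.8% for the others. Within 2 kb of a coding gene end lay 6.27% (5.69 to 6.89) of members and 10.0% of the others, 8.72% when weighted. Over 100 kb from any coding gene lay 16.8% (15.9 to 17.7) of members and 11.7% of the others, 14.6% when weighted. Within 1 kb of a start site the shares were 2.74% (2.36 to 3.17) and 3.01%, and 2.74% when weighted. The share in genes moved with the distance the rule sets, to 53.9% with counterparts barred within 2 kb and 45.5% within 10 kb. The weighting took account of score only, and the part of the rule's distance in the difference was not tested. For the sites found only in the list named for D1 the share in genes was 45.4% (39.6 to 51.3), an interval that holds the members' value.

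H3K4me3 stood beside a small share of members, and a smaller one of the other summits of their list. In the wild-type list 85 members, 1.32% (1.05 to 1.63), had an H3K4me3 summit within 1 kb, against 0.760% of the others and 0.839% when weighted to the members' scores. In the null list it was 80 members, 1.24% (0.984 to 1.54), against 0.794% and 0.903%. The wild-type share was above that of the others in each of the score classes 10 to 12 (1.18% and 0.886%), 12 to 15 (1.41% and 0.783%) and 15 to 20 (1.60% and 0.799%). The sites found only in the list named for D1 had higher shares, 2.37% (0.959 to 4.83) in the wild-type and 3.39% (1.64 to 6.15) in the null list, from 7 and 10 of 295 sites. The highest members beside H3K4me3 were at Peg12, 40841 bp from LOC115488029 (26.6), in Grip1, a scaffold of glutamate receptors (20.8), and the pair at Mkrn3.

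Most members beside H3K4me3 had it in both genotypes. Of 100 members with a summit in either list, 65 had both, 20 only the wild-type one and 15 only the null one. For the 1237 other summits the counts were 696, 249 and 292. Wild-type only thus made up 20.0% (12.7 to 29.2) beside members and 20.1% beside the others, and null only 15.0% (8.65 to 23.5) and 23.6% (21.3 to 26.1). The interval for null only beside members overlapped that of the others, but ended just below the others' share of 23.6%. Several one-sided members had the other genotype's summit nearby. With the other genotype's summit required to be over 5 kb away, 12 members were wild-type only and 3 null only, and of the other summits 115 and 105.

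Ctcf stood beside members about as often as beside other summits. The counts were 56 members, 0.867% (0.656 to 1.12), in the untransduced list, 137, 2.12% (1.78 to 2.50), in the non-silencing list and 84, 1.30% (1.04 to 1.61), in the null list. The others had 1.02%, 2.51% and 1.55%, and 0.868%, 2.34% and 1.41% when weighted. After Peg12 and the member beside Fnbp1l, the highest members beside Ctcf were in Cep170b (28.0), in Cmtr1, an mRNA cap methyltransferase (23.1), and 19437 bp from Mki67, the gene of the proliferation antigen Ki-67 (23.1). The balance between genotypes turned on which wild-type list was used. With either wild-type list, 67 of 157 members had both, 73 (46.5%) wild type only and 17 (10.8%) null only, and the 3760 others had 39.4%, 48.6% and 11.9%. With the untransduced list alone, 39 of 101 members had both, 17 (16.8%) wild type only and 45 (44.6%) null only, and the 2407 others had 32.9%, 19.7% and 47.4%. Under both countings the members' intervals held the others' shares.

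**Figure D4:**
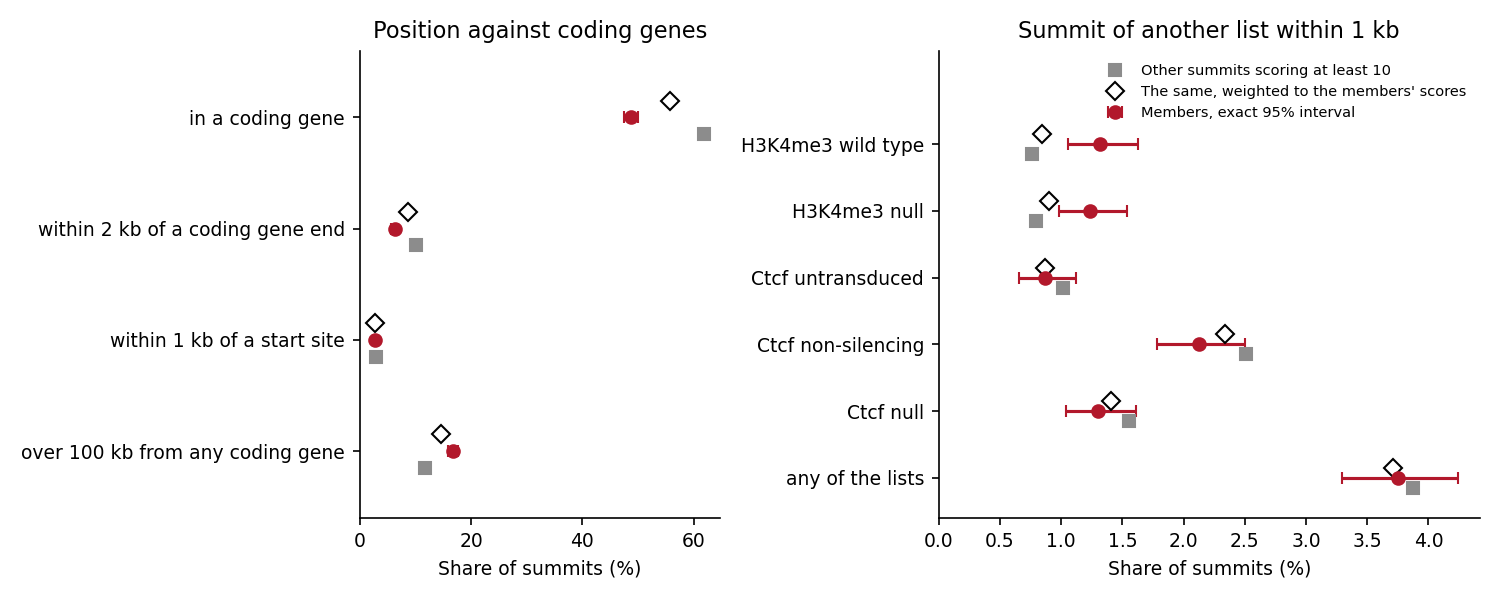
Shares of summits (x axis, %) by position against coding genes (left) and by a summit of another list within 1 kb (right). Circles are members with exact 95% intervals, squares other summits scoring at least 10, and diamonds those others weighted to the members' scores. Members are lower in genes (48.7% against 61.8%) and higher beside H3K4me3, and overlap the weighted shares for Ctcf.

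Smchd1 and H3K27me3 stood beside very few members, and their lists are short. Smchd1 summits lay within 1 kb of 0.0619% (0.0169 to 0.159) of members and 0.0273% of the other summits of at least 10. In the looser Smchd1 list these were 0.139% (0.0638 to 0.264) and 0.0732%. For wild-type H3K27me3 they were 0.0465% (0.00958 to 0.136) and 0.00241%, or 0.0094% when weighted, from 3 summits on each side. Among these, only the H3K27me3 interval left out the others' share. That interval rests on 3 members, and its lower end of 0.00958% nearly met the weighted 0.0094%. Of 38 summits of at least 10 within 1 kb of one of the 407 Smchd1 summits, 4 were members: beside Pcdhac1, on the Snrpn side, in Ttll6 (11.9) and 26057 bp from Prl2c3 (10.3). In the looser Smchd1 list the count was 9 of 100, with one 72713 bp from Ppp2r5c (19.6) and the pair at Mkrn3 as the highest. Of 6 summits within 1 kb of a wild-type H3K27me3 summit, 3 were members. One lay in Dlx2, a homeobox gene of forebrain interneurons (chr2:71545439, 16.5), 58 bp from an H3K27me3 summit, with 9 more H3K27me3 summits of wild-type cells within 15 kb on one side. The others lay 717 bp from Ebf2 (10.7), a helix-loop-helix factor, and 21507 bp from Gas8 (10.1), where a null H3K27me3 summit was present too, 2 bp away. The wild-type H3K27me3 list had 732 summits and the null list 77.

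By chromosome, members ranged on autosomes from 3.77% of summits on chromosome 17 to 5.98% on chromosome 6. On X they were 8.48% (7.21 to 9.90), 146 of 1721 summits. Summits on X were weaker, with a median score of 17.5 against 22.8 to 25.6 on autosomes. The genome-wide share in each score class would give X 7.77%, which lies within its interval. The same reckoning gave 4.47% to 5.30% on the autosomes, and the observed shares fell outside it by more than their intervals on several, such as 3.81% (3.44 to 4.202) against 4.62% on chromosome 5. On Y 11 of 218 summits were members, 5.05% (2.55 to 8.85), below the 9.62% from its scores, and in male cells both sex chromosomes are present once.

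**Figure D5:**
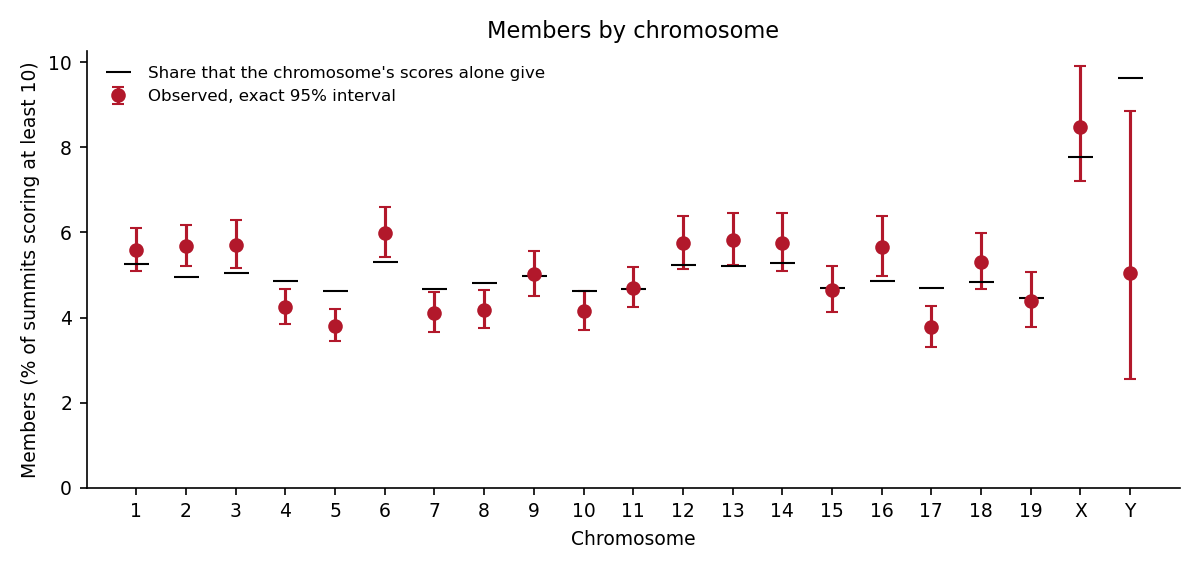
Members as a share of summits scoring at least 10 (y axis, %) on each chromosome (x axis), with exact 95% intervals; dashes mark the share that the scores on that chromosome alone would give. X stands highest at 8.48%, beside 7.77% from its scores.

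Members also lay at some small RNA genes. Within 500 bp of 1228 miRNA hairpins there were members at 8, and at 3 of 408 tRNA genes, 0.651% and 0.735%. Any summit of at least 10 lay within that distance of only 283 of the miRNA hairpins and 19 of the tRNA genes. Most of these genes thus had no summit that could be a member. One member (chr11:70234732, 11.6) lay inside the Mir497 hairpin, which the antisense Mir497b overlaps, and beside Mir195a. Another (chr16:77598945, 12.5) lay inside Mir99a, with its nearest counterpart 71564 bp away. Their mature strands are printed 5′ to 3′ from RefSeq (GRCm38.p6), with the seed, bases 2 to 8, in capitals, because miR-497a-5p and miR-195a-5p share a seed and sit in the region of 1 member.
mmu-miR-497a-5p (chr11:70234730-70234751, plus strand): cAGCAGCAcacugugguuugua
mmu-miR-195a-5p (chr11:70235062-70235082, plus strand): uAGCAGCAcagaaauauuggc
mmu-miR-99a-5p (chr16:77598940-77598961, plus strand): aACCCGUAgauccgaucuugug
The first 2 carry the seed AGCAGCA, while miR-99a-5p carries ACCCGUA. The member at chr11:70234732 lay within miR-497a-5p and outside the Mir195a hairpin. The other hairpins with a member within 500 bp were Mir130a (10.3), Mir652 (13.1), Mir704 (18.2) and Mir6397 (18.3). Expression of these miRNAs was not measured here.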

How the data were processed

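The MBD-seq and ChIP-seq libraries were pooled by group and their peaks called by the authors, per the labels. The deposited files are 11 summit lists with a score in −log10 units (p-value or q-value) from the authors' peak caller. CASAVA 1.4, MACS2 2 and the build mm10 are named per the submitters' processing notes. An aligner was not given in the sources read. Lists were made at 5e-4, and Smchd1 also at 5e-3. Depth is unknown. A stronger control or a shallower library changes which weak summits pass, so a missing summit is not missing methylation.

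Distances and counts used scipy 1.17.1, pandas 2.3.3 and numpy 2.4.6 under Python 3.11.15, with figures by matplotlib 3.10.9, and the code was tested on simulated data. Genes and sequences came from RefSeq tables of GRCm38.p6, the same assembly as mm10; exons, introns and untranslated regions were not used here. Because labels and names of the MBD lists conflict, list names are used. Weighting to the members' scores used classes with limits 10, 12, 15, 20, 25, 30, 40 and 60.

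Named are the coding genes of the 20 highest members that have one within 10 kb, the 10 coding genes with most members (ties by highest score), genes of fixed lists with a member (the 6 highest where there are more), the 5 highest members beside each other mark, the 10 highest coding genes with a member in the start window, and Smchd1. The members beside Fnbp1l, Fbxo2 and Mat2b, the further genes with 6 members, the small RNA genes and the gene runs were named after their values were seen. The members and lists were chosen with earlier results of these data known. One gene that this rule names is not reported here.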

Additional observations from a re-analysis of the deposited data

Results flagged for a closer look

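Summits on unplaced contigs were outside every comparison above. The list named for wild type had 206 summits on 32 such contigs, 137 of them with a score of at least 10, and 5 of these (3.65%) had no summit of the list named for D1 within 5 kb, which is above the 3 counts taken as a floor. The highest of the 5 scored 31.9. They are given as values because contigs carry no position among genes.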

How the results depend on the processing

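The number of members and their position depended on the limits. With a score minimum of 8 there were 10809 members against 649 sites found only in the list named for D1, 46.1% of members in coding genes and 174 listed genes with a member (114 as reported). With a minimum of 15 these were 1191, 7, 53.7% and 24, the share beside any other mark was 4.37% (3.75% as reported), and 50% of members beside H3K4me3 had it in 1 genotype only (35% as reported). Barring counterparts within 2 kb gave 10125 members against 496, with 53.9% in genes, 7.68% near gene ends and 4.30% beside a mark, and within 10 kb 3883 against 169, with 45.5%, 5.05% and 3.04%, and 1 of the 3 members of at least 40. Equal numbers of highest summits gave 1755 sites only in the list named for D1. Gene ends taken within 5 kb gave 14.2%. Other marks within 500 bp and 2 kb gave 1.61% and 7.68% of members with any mark, and 47.5% and 25.1% of those beside H3K4me3 in 1 genotype only. Listed genes with a member near an end only were 46. Merging members within 1 kb moved none of these results. Weighting to the members' scores, chosen after seeing the data, turned the difference for any mark from -0.13 to 0.036 percentage points. The other differences kept their direction, but some nearly vanished. Those for start sites went from -0.264 to -0.00277 and for untransduced Ctcf from -0.151 to -0.000357. The difference in coding genes went from -13.1 to -6.95. The cause of these shifts beyond the changed limits was not tested. No paired analysis was possible because every list pools its libraries. Depth per library is unknown, so a weak summit present in 1 list may lie just under the threshold of the other.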
